A study of Mus musculus with 3 samples.

Results

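The genes of the major histocompatibility complex (MHC) and of antigen presentation were followed across 3 arrays of plasmacytoid dendritic cells. They were taken by name: every array gene whose symbol starts with H2-, the prefix of the mouse MHC region, plus genes for the class I light chain, peptide loading, class II turnover and class II control. The rule found 43 of the 19505 named genes, 35 with the H2- prefix and 8 of the 10 genes listed by name. Nlrc5 and Cd74 were not analysed here. Of the 43, 31 belong to class I, 11 to class II and 1, H2-Ke6, encodes an enzyme whose gene lies in the region.

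The cells were grown from bone marrow of wild-type male BALB/c mice of 4 to 5 weeks over 6 to 9 days in medium with Flt3 ligand at 100 ng/mL, matured with CpG oligodeoxynucleotides and sorted. The 3 groups were cells treated with astragaloside IV, a plant saponin, cells treated with oxymatrine, a plant alkaloid, and control cells. Treatment lasted 12 h and was followed by CCL21, a chemokine that attracts mature dendritic cells, for 1 h. Doses are not given, nor is it said whether control cells received CCL21 or a vehicle. Each group was 1 array, so array and group cannot be told apart, no test was possible, and every difference below is a difference between 2 arrays with no replicate error. The study asked how both compounds hold back the migration of these cells.

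MHC class I molecules pair a heavy chain with beta-2-microglobulin and show peptides from inside the cell to CD8+ T cells. MHC class II molecules pair an alpha with a beta chain, are loaded in endosomes and show peptides from taken-up material to CD4+ T cells. Plasmacytoid dendritic cells are best known for type I interferon, and after maturation through TLR9 they carry both classes at the surface. BALB/c mice have the d haplotype of the H2 region, while the reference sequence comes from C57BL/6J, which has the b haplotype. Heavy chain genes are also alike in sequence, and the probe sequences were not used here, so signal shared between near-identical copies cannot be told apart and probe sets of different genes are not ranked by level.

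The promoters of 8 members are shown because matches to the motifs below differ between the 2 classes. They are chains of both classes described below, among them H2-D1, H2-DMb1 and H2-DMb2, which differed between arrays, and B2m, which did not. The sequences are those of RefSeq on GRCm38.p6, read along the gene's own strand from 5′ to 3′. Capitals mark matches to 3 motifs, searched on both strands. These are GATTGG (or its reverse CCAATC), the core of the Y box bound by the factor NF-Y, then GGGGATT followed at once by CCCC, the enhancer A of class I genes bound by NF-kB, and GAAA, 2 bases of any kind and GAAA again, an interferon response element. The class II stretches run from 130 bases before the annotated gene start to 20 after it, at chr17:34287804-34287953 on the minus strand for H2-Aa and on the plus strand at chr17:34305737-34305886 for H2-Eb1, chr17:34153061-34153210 for H2-DMb1 and chr17:34145119-34145268 for H2-DMb2.
H2-Aa: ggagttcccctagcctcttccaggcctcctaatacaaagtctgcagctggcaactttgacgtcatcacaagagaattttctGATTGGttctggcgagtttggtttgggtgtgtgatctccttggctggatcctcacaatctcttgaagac
H2-Eb1: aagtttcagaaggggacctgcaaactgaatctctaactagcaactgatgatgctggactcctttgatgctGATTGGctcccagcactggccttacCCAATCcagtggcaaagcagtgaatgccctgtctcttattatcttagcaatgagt
H2-DMb1: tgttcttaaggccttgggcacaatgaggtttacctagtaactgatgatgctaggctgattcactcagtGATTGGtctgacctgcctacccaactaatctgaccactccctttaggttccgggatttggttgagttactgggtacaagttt
H2-DMb2: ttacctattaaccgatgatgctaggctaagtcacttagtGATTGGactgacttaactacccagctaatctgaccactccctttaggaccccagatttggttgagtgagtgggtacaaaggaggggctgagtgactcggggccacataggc

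The class I heavy chain stretches begin 200 bases before the gene start, at chr17:34000328-34000547 on the minus strand for H2-K1 and on the plus strand at chr17:35262894-35263113 for H2-D1 and chr17:35379417-35379636 for H2-Q4. The stretch of B2m, the light chain gene, begins 160 bases before its start, at chr2:122147527-122147706 on the plus strand.
H2-K1: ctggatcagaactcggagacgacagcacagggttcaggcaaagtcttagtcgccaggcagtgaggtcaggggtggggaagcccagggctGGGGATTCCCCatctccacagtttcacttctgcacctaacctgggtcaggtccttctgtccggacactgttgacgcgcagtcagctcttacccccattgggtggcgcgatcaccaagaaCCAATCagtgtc
H2-D1: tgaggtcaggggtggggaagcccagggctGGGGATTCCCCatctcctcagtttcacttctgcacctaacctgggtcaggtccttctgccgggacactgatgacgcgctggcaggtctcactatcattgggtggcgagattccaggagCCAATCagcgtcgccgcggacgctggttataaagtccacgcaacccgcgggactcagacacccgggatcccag
H2-Q4: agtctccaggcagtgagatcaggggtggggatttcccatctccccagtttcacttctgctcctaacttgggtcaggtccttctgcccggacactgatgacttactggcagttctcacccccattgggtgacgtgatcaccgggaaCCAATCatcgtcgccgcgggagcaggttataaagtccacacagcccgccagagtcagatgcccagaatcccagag
B2m: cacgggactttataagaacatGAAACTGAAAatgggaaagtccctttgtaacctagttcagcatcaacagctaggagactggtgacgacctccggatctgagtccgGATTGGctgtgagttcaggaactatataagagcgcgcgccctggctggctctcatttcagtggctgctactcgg

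A promoter window, 250 bases before the start to 50 after it, was found for 34 of the 43 members, and 4 of these genes have several windows. All 8 class II chain genes with a window hold GATTGG as written, between 44 and 199 bases upstream and in 7 of the 8 between 40 and 110 bases upstream, and H2-Eb1 holds it in reverse as well, 35 bases upstream. Over all 32851 windows, 8.71% hold it as written and 16.1% in either direction. Of 24 class I members with a window, 16 hold CCAATC and 2 hold GATTGG, and of the 14 of them above background 7 and 2 do. The search took whole patterns only. The H2-K1, H2-D1 and H2-Q4 stretches also hold the unmarked letters CATTGGG upstream of CCAATC. Which of these letters form the class I Y box, and so its orientation, was not tested. The enhancer A letters stand in H2-K1 and H2-D1, and in 10 of the 32851 windows in all, or 0.0304%. The H2-Q4 stretch holds the similar letters GGGGATTTCCC, unmarked because they are not the whole pattern. Whether they serve as an enhancer A was not tested. The whole pattern of the interferon response element was found in 4 class I members, B2m, Erap1, H2-T22 and H2-T23, and in 3.44% of all windows. None of the 9 class II members with a window held it. Interferon elements that depart from this pattern were not searched for. H2-K1, H2-D1 and H2-Q4 had no whole match, and whether their promoters hold such an element was not tested. In local alignments of the whole windows, H2-K1 and H2-D1 were identical at 90.35% of aligned positions, gaps included, and H2-DMb1 and H2-DMb2 at 77.41%.

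**Figure D1:**
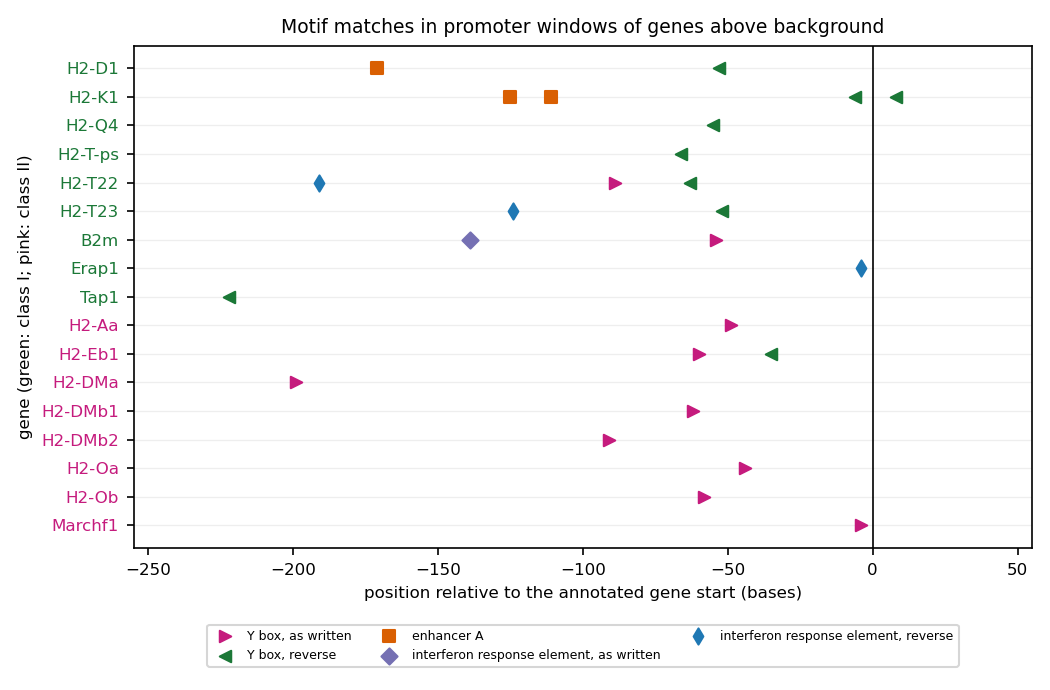
Positions of motif matches in the promoter windows of members above background, in bases from the annotated gene start, 1 row per gene with a match; H2-K1 has 2 overlapping windows and so 2 sets of marks. Every class II chain gene shown holds GATTGG as written, 44 to 199 bases upstream, and H2-Eb1 also holds it in reverse at 35 bases upstream. Matches in the class I heavy chain genes are mostly to the reverse letters, CCAATC.

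The deposited values are log2 expression levels, 1 per probe set and array. A gene was counted as above background where its mean over the 3 arrays reached 5.28, the level below which 95% of 1412 olfactory and vomeronasal receptor genes lay. This left 10671 genes, among them 31 members, 20 of class I, 10 of class II and H2-Ke6. The other 12 members lay below 5.28 in each of the 3 arrays, with levels between 2.91 and 5.20. They were 10 of the 11 H2-M genes of class I, which in mice are known mainly from the vomeronasal organ for the M1, M9 and M10 families, together with H2-Bl and the class II beta chain gene H2-Eb2. Differences between arrays went as far as -1.36 among them (H2-M10.4, astragaloside IV minus oxymatrine), at levels of 3.34, 4.70 and 3.87 in the astragaloside IV, oxymatrine and control arrays, and are not read further.

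Markers of the labelled cell type were counted: 16 of 17 measured plasmacytoid dendritic cell markers were above background, all but Pacsin1. Of all 19505 named genes 10671 passed the same filter, so the marker counts here do not by themselves settle the cell type. Other antigen-presenting cells were represented too. For conventional dendritic cells of type 1, 9 of 11 markers were above background, without the defining Xcr1 and Clec9a, and for type 2 the count was 9 of 12, without Cd209a, Mgl2 and Klf4. All 10 measured monocyte and macrophage markers were above background, as were 3 of 8 B cell markers, without Cd79a and Pax5. On the linear scale the summed level of the type 1 list was 183033 with astragaloside IV, 177084 with oxymatrine and 194042 in control, but 1 gene, Id2, which other leukocytes express too, made up 96.4%, 96.7% and 96.6% of these sums. Without Id2 the type 1 list summed to 6583, 5886 and 6507 in the same arrays, and its genes went different ways: Tlr3 was at 9.72, 9.29 and 9.19, and Itgae at 5.77, 6.01 and 6.50. The type 2 list summed to 79863, 82095 and 81016. The monocyte and macrophage list summed to 63626, 63857 and 64128, and the B cell list to 1441, 1627 and 1535. The neutrophil list, with 3 of 12 markers above background and without S100a8 and S100a9, summed to 8173, 9765 and 11493, and the T and NK cell list, with 4 of 11 and without Cd3e, to 984, 920 and 1157. The plasmacytoid list itself summed to 95860, 94593 and 100354, and 10 of 11 markers of migratory mature dendritic cells, all but Ccl17, were above background, with sums of 683993, 682072 and 701209, of which Fscn1, equal in the 3 arrays, made up 49.1%, 49.3% and 47.9%. Single genes also carried most of the B cell sum (Cd79b, 67.0%, 68.8% and 73.0%) and of the neutrophil sum (Lcn2, 81.7%, 80.5% and 82.6%). Irf7 made up 33.0%, 31.0% and 33.8% of the plasmacytoid sum. In that list Siglech was at 8.99, 9.02 and 8.99 and Ly6d at 6.59, 6.59 and 6.89, while Tcf4 was at 14.37 in each array. Sums of different lists rest on different probe sets and are not compared, so they do not settle the cell type either. Conventional dendritic cells, macrophages and B cells also carry MHC class II, and the part of these marker levels in the differences below was not tested. Fewer cells of a type and less RNA per cell cannot be told apart in such samples.

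Of the 31 members above background, 4 had equal values in all 3 arrays. B2m, the class I light chain, had the same value of 19.29 in all 3 arrays, close to the highest value of any probe set, 19.67. Ciita, the coactivator that switches on class II genes, was at 10.03 in each array, H2-M3, which presents formylated peptides, at 11.67, and H2-Ob at 6.52. Such equality was common on these arrays: 51.6% of all genes above background were equal in at least 2 of them. The share of all genes equal in all 3 was not counted. Between astragaloside IV and control, oxymatrine and control, and the treated arrays, 8, 7 and 8 of the 31 members were equal. Over all 10671 genes the same counts were 2961, 2600 and 2854, so the members are not set apart by equal values. Why the deposited values are so often equal was not tested.

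**Figure D2:**
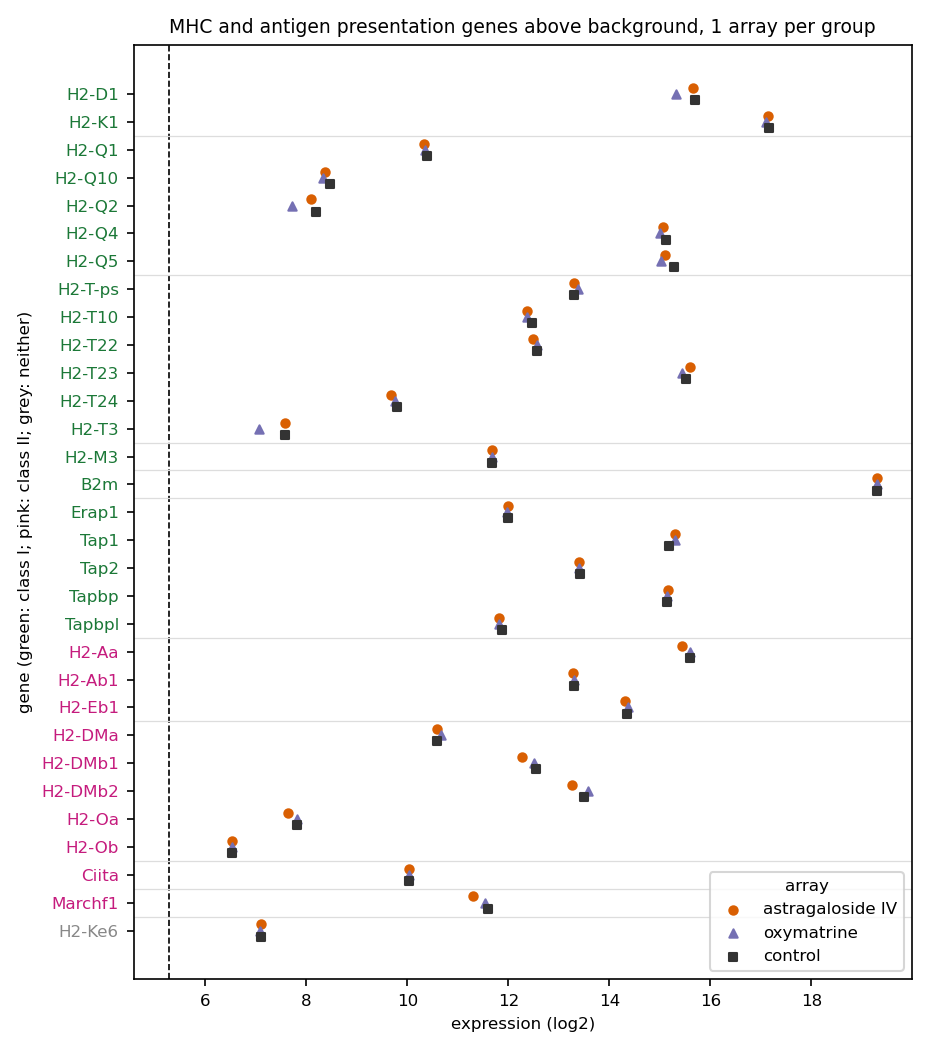
Log2 expression of the 31 members above background in the arrays of astragaloside IV (circles), oxymatrine (triangles) and control (squares), 1 array each, with genes grouped by role; the dashed line is the background level of 5.28. H2-D1, H2-Q2 and H2-T3 stand lowest with oxymatrine, and H2-DMb1, H2-DMb2 and Marchf1 with astragaloside IV.

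In the astragaloside IV array 7 of the 10 class II genes above background lay below control. Marchf1, a ubiquitin ligase that marks class II molecules and CD86 for turnover, was at 11.30 with astragaloside IV, against 11.59 in control, a log2 difference of -0.29. H2-DMb1, a beta chain of the H2-DM molecule that exchanges peptides on class II, was at 12.27 with astragaloside IV, against 12.54 in control, a difference of -0.27. Its second beta chain gene, H2-DMb2, was at 13.25 with astragaloside IV, against 13.50 in control, a difference of -0.25. The 2 beta chain genes thus differed by nearly the same amount, while H2-DMa, the alpha chain they pair with, was at 10.59 in both arrays. Whether the probe sets of the 2 beta chain genes share signal was not tested.

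Of the classical class II chains, H2-Aa, the alpha chain of I-A, was at 15.43 with astragaloside IV, against 15.59 in control, a difference of -0.16. Its partner H2-Ab1 was at 13.29 in both arrays, with a difference of -0.01, and H2-Eb1, the beta chain of I-E, at 14.31 with astragaloside IV, against 14.36 in control, a difference of -0.04. H2-Oa, a chain of the H2-O molecule that restrains H2-DM, was at 7.63 with astragaloside IV, against 7.81 in control, a difference of -0.17. Within a pair the 2 chains did not differ alike: H2-Aa was lower and H2-Ab1 hardly so, H2-Oa was lower and H2-Ob equal. The difference of H2-Oa was a common one for genes of its level, as given below.

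None of the class II members above background was higher than control in this array and 3 were exactly level with it, and the median difference was -0.10. Over all 10671 genes 40.8% were lower and 31.4% higher, and the median was 0. The split moved with the scaling, for the members as for all genes. Centring every array on its median, which shifts all differences by -0.06 and so turns equal values into lower ones, made 10 of the 10 lower, beside 78.3% of all genes. After quantile normalisation 7 were lower and 3 higher, beside 58% of all genes lower, and after lowess centring, which removes a trend with level, 6 were lower and 4 higher, beside 42.6% lower. As a rule of size, genes were counted at a log2 difference of 0.32 or more and at 1.5-fold and 2-fold. No member, of either class, was 0.32 or more apart from control, where 10.5% of all genes above background and 3.87% of the 4421 genes with a mean level of at least 10 were. At 1.5-fold the share of all genes was 2.13% and at 2-fold 0.197%. The class II differences were small, and those of Marchf1, H2-DMb1, H2-DMb2 and H2-Aa lay among the lower ones for genes of their level. In bins of about equal gene number by level, Marchf1 was 11th lowest of 534 genes, H2-DMb2 22nd and H2-DMb1 23rd of 533, and H2-Aa 32nd of 534. In units of the SD of the same difference over those genes, which is not a replicate error, they stood at -2.60, -2.32, -2.06 and -2.03. H2-Oa was 115th lowest of the 533 genes in its bin, at -0.74. The top bin, which holds H2-Aa and H2-D1, is wide: it also holds H2-Q4, with a mean level of 15.05, and B2m, at 19.29. Differences narrow as level rises, so ranks and SD units in that bin are set partly against much brighter genes.

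Class I lay closer to control in this array. Of 20 class I members 3 stood above control, 13 below it and 4 level with it, with a median of -0.03. Centring on medians gave 18 lower and 2 higher with a median of -0.09, quantile normalisation 11 lower and 7 higher, and lowess centring 11 lower and 9 higher, beside the shares of all genes given above for class II. The lowest was H2-Q5, annotated as a transcribed pseudogene, at 15.10 with astragaloside IV, against 15.27 in control, a difference of -0.17. Tap1, a subunit of the pump that brings peptides into the endoplasmic reticulum, was the highest, at 15.30 with astragaloside IV, against 15.19 in control, a difference of 0.11, and H2-T23, whose product is a ligand of an inhibitory receptor on natural killer cells, differed by 0.08.

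In the oxymatrine array 11 of the 14 class I heavy chains above background lay below control, as did 3 of the 10 class II members. Of all genes above background, 46% did. The heavy chain count was the same with astragaloside IV, at 11 lower, 1 higher and 2 level, beside 40.8% of all genes lower. The heavy chain medians were -0.10 with oxymatrine and -0.05 with astragaloside IV. H2-D1, a classical heavy chain, was at 15.33 with oxymatrine, against 15.70 in control, a difference of -0.38. It was the 5th lowest of the 534 genes in its bin, the wide top bin described above, at -3.32 times their SD. H2-K1, the other classical heavy chain among the members, was at 17.10 with oxymatrine, against 17.16 in control, a difference of -0.06. H2-D1 and H2-K1 thus differed unequally.

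In a lower range of signal, H2-T3, the gene of the thymus leukaemia antigen, was at 7.06 with oxymatrine, against 7.58 in control, a difference of -0.51. H2-Q2 was at 7.71 with oxymatrine, against 8.19 in control, a difference of -0.48. In their bins of level these stood 32nd and 35th lowest of 534, as the differences of dimmer genes were spread more widely. H2-Q5 differed by -0.25, H2-Q10, known as a secreted class I molecule of the liver, by -0.13, H2-Q4 by -0.11 and H2-T10, annotated as a transcribed pseudogene, by -0.11.

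All 7 heavy chains of the K, D and Q groups above background were lower with oxymatrine, with a median of -0.13. Of all genes, 46% were lower. After quantile normalisation and after lowess centring 1 of the 7 was higher, where 52.7% and 44.7% of all genes were lower. The same 7 were also lower with astragaloside IV, where 40.8% of all genes were, with a median of -0.06. There 1 of them was equal after quantile normalisation. Signal shared between near-identical copies cannot be told apart, so the 7 are not 7 separate agreements. Both comparisons use the same control array. Over the 6 T group genes the median was -0.06 with oxymatrine, and H2-T-ps was higher by 0.07.

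At 0.32 or more on the log2 scale, 3 members differed from control with oxymatrine, H2-D1, H2-Q2 and H2-T3, all lower. These are 3 of 31, beside 14.4% of all genes above background in either direction and 9.22% lower, so their share is near the background. Of the bright genes, with a mean level of at least 10, 7.01% were that far apart. No member reached 1.5-fold, as 3.31% of all genes did, or 2-fold, as 0.281% did. Of the 20 class I members 14 stood below control, 3 above it and 3 level with it, with a median of -0.05, while 46% of all genes were lower and 29.7% higher. After quantile normalisation 11 of the 20 were lower and 8 higher, beside 52.7% of all genes lower, and after lowess centring 11 were lower and 9 higher, beside 44.7%. Centring on medians gave 18 lower and 2 higher with a median of -0.12, beside 79.3% of all genes lower. Peptide loading genes were near control: Tap1 was at 15.30 with oxymatrine, against 15.19 in control, a difference of 0.11. Tap2, the other subunit of the pump, differed by -0.01, Tapbp, which encodes tapasin, by 0.01, Tapbpl, a relative of tapasin, by -0.07 and the peptide-trimming Erap1 by -0.02.

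Besides the 3 class II members below control in the oxymatrine array, 3 lay above it and 4 were level with it, with a median of 0. H2-DMa and H2-DMb2 were higher by 0.07 each and Marchf1 differed by -0.06. H2-Aa, H2-Ab1 and H2-Eb1 were within 0.01 of control. This balance moved with the scaling, in which all genes moved too. After lowess centring 9 of the 10 were higher, beside 55.3% of all genes, after quantile normalisation 6, beside 47%, and with the arrays centred on their medians 8 were lower, beside 79.3%.

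**Figure D3:**
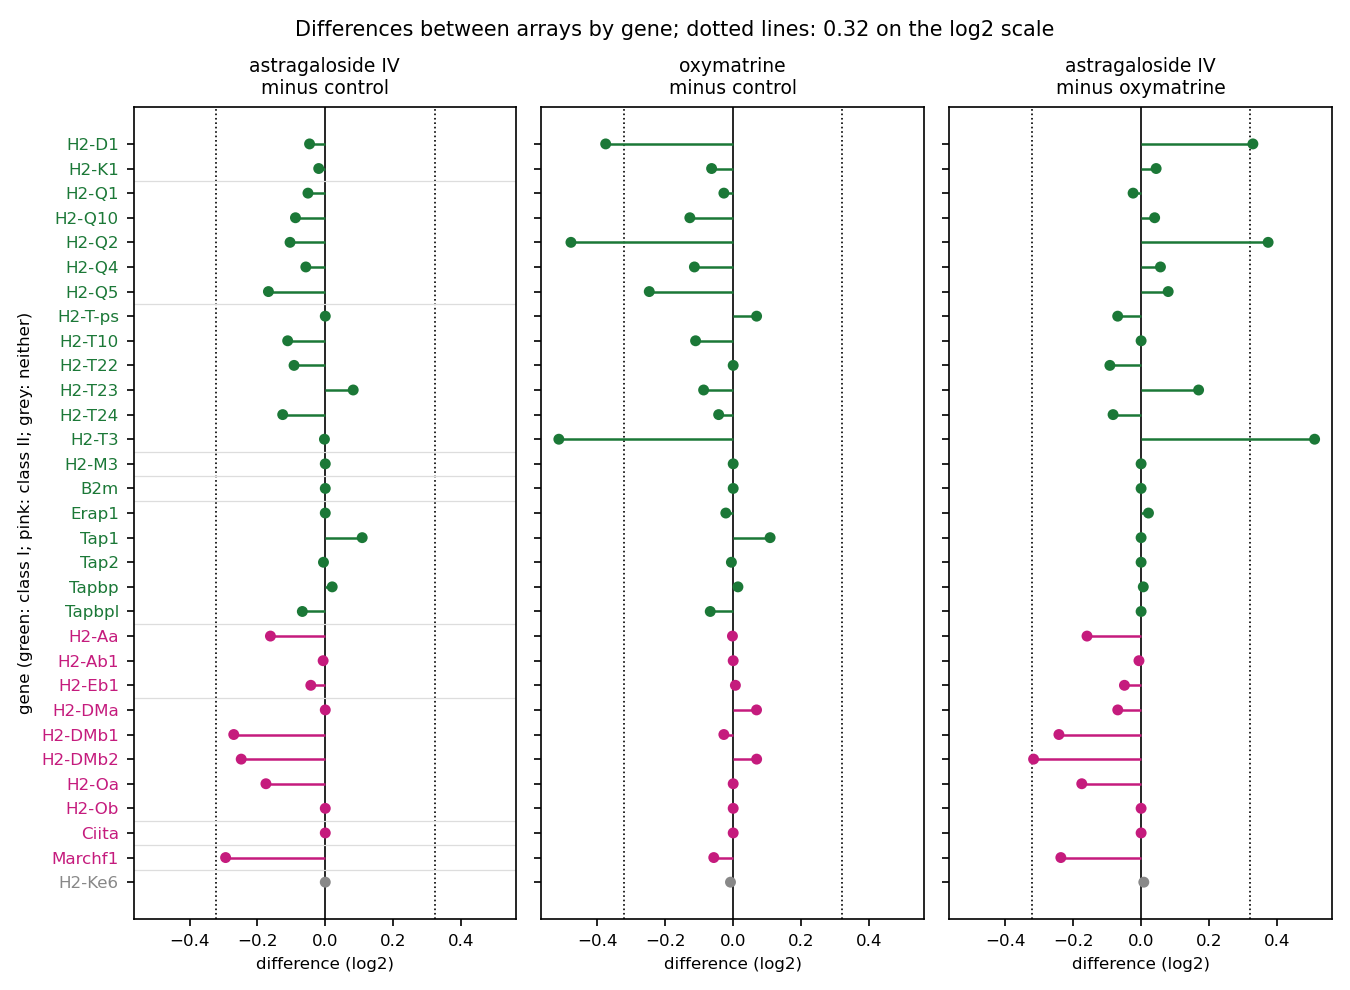
Log2 differences for each of the 31 members above background in the 3 pairs of arrays, with class I in green, class II in pink, H2-Ke6 in grey and dotted lines at 0.32 on either side of 0. Of the 10 class II genes, 7 point left in the panel of astragaloside IV minus control and 8 in that of astragaloside IV minus oxymatrine, and H2-D1, H2-Q2 and H2-T3 pass the line in both panels that involve oxymatrine.

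Setting the treated arrays against each other needs no control. All 8 class II members that differed were lower with astragaloside IV than with oxymatrine, and the other 2 were equal. Their median was -0.11, while 32.5% of all genes were lower and 40.7% higher. With the arrays centred on their medians 8 of the 10 were lower and 2 higher, beside 31.6% of all genes lower. After quantile normalisation and after lowess centring 10 of 10 were lower, where the lower share of all genes was itself larger, at 59.5% and 57.4%. H2-DMb2 was at 13.25 with astragaloside IV, against 13.57 with oxymatrine, a difference of -0.32, just short of the size counted, and the lowest of the 533 genes in its bin. After quantile normalisation or lowess centring H2-DMb2 passed that size, and the count of members in this comparison was 4 in place of 3. H2-DMb1 was at 12.27 with astragaloside IV, against 12.51 with oxymatrine and Marchf1 at 11.30 with astragaloside IV, against 11.53 with oxymatrine, differences of -0.24 each. H2-Oa differed by -0.17 and H2-Aa by -0.16.

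H2-D1 stood at the other end. It was at 15.66 with astragaloside IV, against 15.33 with oxymatrine, a difference of 0.33 and the highest of the 534 genes in its bin. H2-T3 differed by 0.51, H2-Q2 by 0.37 and H2-T23 by 0.17. H2-D1, H2-T3 and H2-Q2 were the 3 members at 0.32 or more, as were 11.5% of all genes above background and 3.96% of those with a mean level of at least 10. No member reached 1.5-fold, as 2.58% of all genes did, or 2-fold, as 0.159% did. Of the 20 class I members 10 were higher with astragaloside IV, 4 lower and 6 equal, with a median that rounds to 0. The order of higher and lower turned with the scaling: quantile normalisation gave 8 higher and 11 lower, lowess centring 10 and 10, and centring on medians 16 higher and 4 lower, beside 40.1%, 42.6% and 68.4% of all genes higher.

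Which array held the lowest of the 3 values, as deposited, was counted for each class. Astragaloside IV alone held the lowest of the 3 values for 7 of 10 class II members and 3 of 20 class I members. Oxymatrine alone held it for 0 class II and 9 class I members. Over all genes above background, astragaloside IV alone was lowest for 19.4% and oxymatrine alone for 29.7%. The class I median minus the class II median was 0.07 for astragaloside IV minus control, -0.05 for oxymatrine minus control and 0.12 for astragaloside IV minus oxymatrine. For heavy chains and class II chains alone, without loading and control genes, these gaps were 0.05, -0.10 and 0.16. With 1 array per group the gaps have no error and were not tested.

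**Figure D4:**
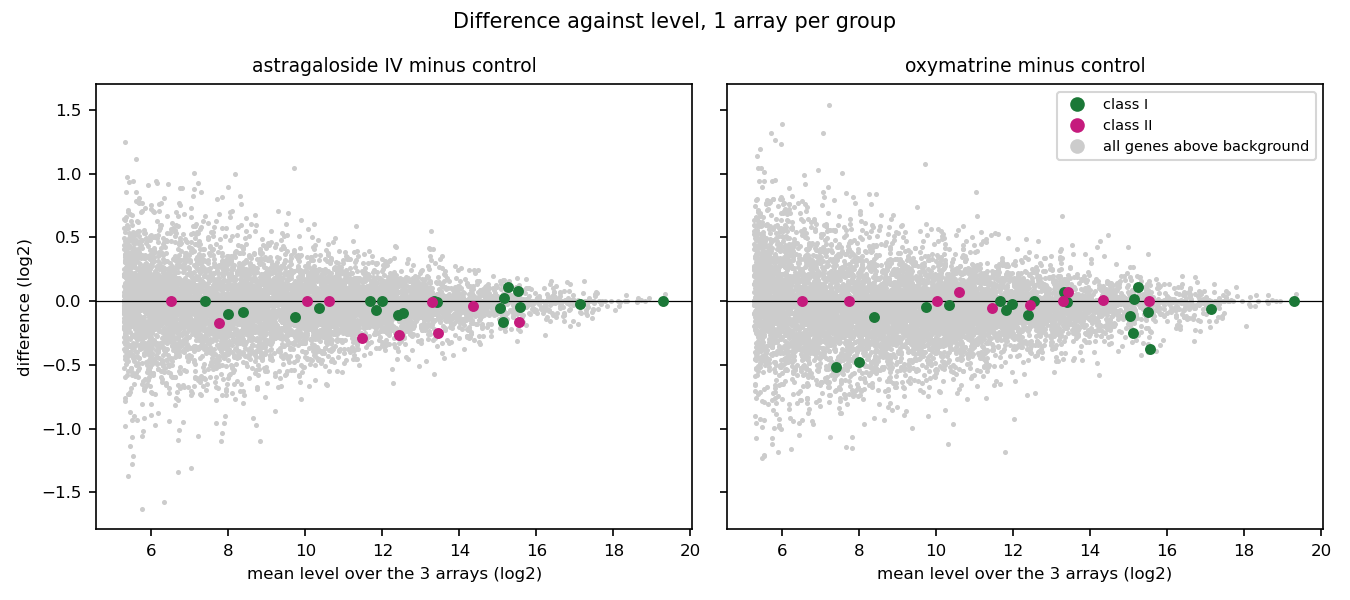
Log2 difference from control against mean level for all 10671 genes above background (grey), with class I (green) and class II (pink) members on top, for astragaloside IV (left) and oxymatrine (right). Differences narrow as level rises, and H2-D1 with oxymatrine, at -0.38, lies near the lower edge of genes as bright as it.

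Other genes of the pathways were counted from lists. Of 13 factors of class II transcription, 5 lay below control and 5 above it in the astragaloside IV array, and 8 below and 3 above it in the oxymatrine array, with medians of 0 and -0.02. Nfya, a subunit of NF-Y, was at 12.14 with astragaloside IV and 12.38 with oxymatrine, against 12.59 in control, differences of -0.46 and -0.21. Rfxap, a subunit of the RFX complex that binds the X box of class II promoters, was at 8.68 and 8.61 with astragaloside IV and oxymatrine, against 9.07 in control, differences of -0.39 and -0.46. Irf4, a factor of dendritic and B cell differentiation, was higher by 0.20 in the astragaloside IV array and differed by -0.39 in the oxymatrine array. Of 9 genes of the interferon-gamma axis measured, such as Irf2 and Jak1, 0 were 0.32 or more apart in either comparison with control, and both medians were 0. Of all genes above background, 10.5% were that far apart with astragaloside IV and 14.4% with oxymatrine. With 9 genes, a count of 0 cannot be told from those shares.

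Of 12 chaperone and import genes of the class I loading route, 6 were lower and 4 higher with astragaloside IV, and 8 were lower and 1 higher with oxymatrine, with medians of -0.0025 and -0.06. Pdia3, the disulphide isomerase of the loading complex, differed from control by -0.14 in the astragaloside IV array and by -0.40 in the oxymatrine array, and Bcap31, an export receptor of the endoplasmic reticulum, by 0.07 and 0.34 in that order. The 7 genes of the immunoproteasome and its activators, which cut proteins into class I peptides, had medians that round to 0 in both comparisons, and Psme2 differed by 0 and 0.12. In class II endosomal processing, 8 of 12 genes were lower and 4 higher with astragaloside IV, and 5 were lower and 5 higher with oxymatrine, with medians of -0.02 and 0. Among them Ctss, the protease that trims the invariant chain, differed by -0.16 and -0.07, and Ifi30, a reductase of endosomal disulphides, by 0.18 and 0.17.

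Of the class I-like genes outside the H2 region, 7 of 9 measured were above background, and their medians were 0 with astragaloside IV and -0.03 with oxymatrine. Cd1d2, a lipid-presenting molecule, was at 7.09 with astragaloside IV and 7.05 with oxymatrine, against 6.40 in control, differences of 0.68 and 0.64. Its neighbour and near copy Cd1d1 differed by -0.12 and -0.08. Mr1, which presents vitamin B metabolites to mucosal T cells, differed by 0.40 and 0.18, and Ulbp1, a ligand of the NKG2D receptor, by -0.23 and -0.38. Of 13 genes of MHC turnover and surface transport, 7 were lower and 2 higher with astragaloside IV and 6 were lower and 6 higher with oxymatrine, with medians of -0.02 and 0. The retromer gene Vps35 differed by -0.07 and -0.40, and the tetraspanin gene Cd37 by -0.26 and -0.38. Of 11 cross-presentation genes, 6 were lower and 4 higher with astragaloside IV and 9 were lower and 1 higher with oxymatrine, with medians of -0.03 and -0.08. Hvcn1, a proton channel, was at 7.52 with astragaloside IV and 7.41 with oxymatrine, against 8.56 in control, differences of -1.03 and -1.15, and Vamp3, a vesicle fusion protein, differed by -0.29 and -0.56. The counts of all these lists stand beside 40.8% and 46% of all genes lower with astragaloside IV and oxymatrine, and a median of 0 over all genes in both comparisons.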

How the data were processed

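RNA of 3 samples was measured on a whole-transcript array, 1 array per sample and group. Per the submitters' processing notes the authors used RMA, and the deposited values were taken as log2 expression from their range (1.78 to 19.67). The software and the RMA variant are not named in these sources. Names came from the platform annotation of 2019: of 28846 probe sets, 19572 had 1 symbol, 0 several and 9274 none. All 43 members matched RefSeq by Entrez identifier under the same symbol. Where a gene had more than 1 probe set (55 genes), that of highest mean stood for it. Differences of log2 values were computed with no test. For single genes the SD and rank within 20 bins of level are descriptive.

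The rule on names allowed every member, and up to 4 genes of each other list with the largest difference from control. Members and lists were chosen with earlier results of these data known. The background of bright genes, the chains-only summary, the higher folds without a level filter and the marker sums without their brightest gene were added after seeing the data. Calculations were tested on simulated data. Precision is limited by the number of arrays, which carry no read depth. Python 3.11.15, numpy 2.4.6, pandas 2.3.3 and statsmodels 0.14.6 were used.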

Additional observations from a re-analysis of the deposited data

How the results depend on the processing

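No paired analysis was possible because each group is 1 array, and for the same reason no array could be left out. Tried in turn were a stricter level filter, at the 99th percentile of receptor genes, or none, arrays centred on their medians, quantile normalisation, a lowess correction, the mean of a gene's probe sets, list means for medians, and higher folds. The count of members 0.32 or more (log2) apart from control was 0 with astragaloside IV, where centring on the median gave 2 and no level filter 4. It was 3 with oxymatrine and 7 with no level filter, and 3 between the treated arrays, where quantile normalisation and lowess centring gave 4 and no level filter 6. At 1.5-fold and at 2-fold the counts of members above background were 0 in all 3 comparisons. With no level filter, 1 member (H2-M11) reached 1.5-fold with astragaloside IV, and 2 (H2-M10.4 and H2-M10.6) did with oxymatrine and between the treated arrays, where H2-M10.4 also reached 2-fold. The added members of the unfiltered counts lie below background by construction.

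Across these settings the class II median ranged from -0.16 to -0.04 for astragaloside IV minus control, from -0.06 to 0.03 for oxymatrine minus control and from -0.14 to -0.07 for astragaloside IV minus oxymatrine. The class I median ranged from -0.09 to -0.01, from -0.12 to -0.02 and from -0.01 to 0.07 in the same comparisons. The gap between the class medians kept its sign in each comparison, at 0.04 to 0.08, -0.11 to -0.04 and 0.07 to 0.19. Centring on medians shifts both classes alike and could not change the gap. The stricter filter and the mean of probe sets also left it at its main value. The kept sign therefore rests on the other settings alone and is no measure of stability. The class II median of oxymatrine minus control and the class I median of astragaloside IV minus oxymatrine thus took both signs. The medians moved by less than 0.1, but they are themselves about that size or smaller and there is no replicate error, so this says nothing of their stability.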
